A study of Mus musculus with 6 samples.

Results

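Phlpp1 and 7 further genes of the PI3K-Akt pathway were followed in cardiac macrophages of mice with and without legumain. The 8 genes are the phosphatases Phlpp1, Phlpp2 and Inpp5d, the kinases Akt1 and Akt2, the PI3K subunits Pik3cd and Pik3cg, and the PI3K adaptor Pik3ap1. They were picked by name from 34745 listed genes, all 8 were found, and all 8 passed the filter on low counts that left 12546 genes for testing. They were picked with results of these libraries known, so their differences, intervals and calls between genotypes are given as a description and support no further statement.

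RNA came from cardiac macrophages of C57BL/6 mice labelled 8 weeks old, of genotype LGMN-KO (Lgmn KO, 3 libraries, replicates 1, 2 and 4) or WT (3 libraries, replicates 1, 2 and 3). Legumain, encoded by Lgmn, is a lysosomal protease, and the study concerns how macrophages clear dying heart muscle cells after myocardial infarction. The design text places all samples after infarction, while the labels name coronary ligation and sham surgery without assigning either to an animal. The sources used here do not give the deleted part of Lgmn, whether it is missing from all cells, or whether each library came from a separate animal. The p-values then measure only the spread between these libraries, which may be technical.

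Lgmn was at 78.7, 88.5 and 83.5 CPM in the Lgmn KO libraries and 2205, 2692 and 2277 CPM in WT, where CPM is the count scaled to library size with TMM factors. Libraries held 19546253 to 24086976 counts. The proteins stained on the cells, CD45, CD64 and CD11b, were present as Ptprc, Fcgr1 and Itgam, with mean levels of 424, 95.8 and 711 CPM in Lgmn KO against 422, 203 and 915 CPM in WT. Of 11 macrophage markers only Cd163 was near 0 (means of 0.0157 and 0.123 CPM). Markers of T and NK cells were scarce, and their sum over 16 genes was 1.97 to 2.56 CPM in Lgmn KO against 8.13 to 18.8 CPM in WT. Of these 16, Ncr1 had 0 counts in all libraries and 5 genes, Ncr1 among them, had 0 counts in all Lgmn KO libraries. The sum of 8 dendritic cell markers was 3.26 to 5.99 and 5.60 to 16.8 CPM (Siglech at 0 throughout), that of 7 monocyte markers 449.8 to 556 and 447 to 634 CPM, mostly from Chil3, and that of 8 B cell markers 139 to 164 and 111 to 146 CPM, mostly from Cd22. The sum of 9 neutrophil markers was 20.8 to 22.7 CPM in Lgmn KO against 17.3 to 20.4 CPM in WT. The sums for fibroblasts were 45.4 to 117 and 132 to 181 CPM, those for endothelial cells 24.4 to 42.5 and 37.8 to 43.4 CPM (mostly from Kdr, with Tek and Emcn at 0 throughout), and those for cardiomyocytes 3.36 to 4.50 and 3.63 to 4.91 CPM.

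PI3K enzymes phosphorylate a membrane lipid, which recruits the kinase Akt to the membrane, where it is activated. Lipid phosphatases such as SHIP1 (the product of Inpp5d) remove the lipid signal, and the PHLPP phosphatases remove an activating phosphate from Akt itself. In macrophages this pathway serves survival, uptake of particles, migration and the tempering of inflammatory responses. It is regulated mostly at the level of lipids and phosphorylation, which messenger RNA does not show.

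The genome stretches just upstream of the 2 PHLPP genes are shown because Phlpp1 and its paralogue gave unlike values across the genotypes, and that of Inpp5d is shown as an example of a gene restricted to blood cells. The sequences are from RefSeq (GRCm38.p6), plus strand, and end at the base before the gene's start in the deposited table. Capitals mark GC boxes (GGGCGG on either strand) in the PHLPP genes and an ETS motif of the type bound by PU.1 (AGGAAGT) in Inpp5d.
Phlpp1, chr1:106171619-106171751: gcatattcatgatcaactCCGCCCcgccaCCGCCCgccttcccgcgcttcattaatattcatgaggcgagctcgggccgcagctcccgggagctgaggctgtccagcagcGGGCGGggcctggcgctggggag
Phlpp2, chr8:109868353-109868541: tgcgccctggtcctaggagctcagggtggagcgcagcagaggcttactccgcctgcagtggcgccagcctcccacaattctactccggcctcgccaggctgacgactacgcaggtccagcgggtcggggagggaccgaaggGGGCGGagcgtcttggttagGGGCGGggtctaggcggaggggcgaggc
Inpp5d, chr1:87620062-87620311: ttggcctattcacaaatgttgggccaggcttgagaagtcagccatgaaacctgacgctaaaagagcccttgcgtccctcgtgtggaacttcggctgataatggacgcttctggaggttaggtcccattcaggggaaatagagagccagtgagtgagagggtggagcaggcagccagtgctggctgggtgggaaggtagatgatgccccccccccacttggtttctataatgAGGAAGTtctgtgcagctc
Both PHLPP stretches were rich in G and C (67.7% of 133 bases and 69.8% of 189 bases), with 13 and 16 CpG dinucleotides. They held 3 and 2 GC boxes, a motif found in 14.1% and 22.6% of stretches of the same length taken from 27025 genes. Those were the first bases of each gene's RefSeq promoter sequence (the first listed start of each). They need not end at the gene's start, so the 2 shares may differ from those of stretches that end there. The Inpp5d stretch of 250 bases was 54.4% G and C with 5 CpG and no GC box, and its single AGGAAGT is a motif found in 7.80% of such stretches. None of the 3 stretches held TGACTCA (AP-1), CACGTG (E-box), TTCNNNGAA (STAT), GTAAACA (FoxO) or TATAAA on either strand. A match or its absence describes these letters alone.

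Phlpp1 encodes a protein phosphatase that acts on the hydrophobic motif of Akt and on several other kinases. The gene (ENSMUSG00000044340) is protein coding and occupies 106171752 to 106394250 of chromosome 1 (plus strand), in the mouse build that the table follows (GRCm38). It had 318, 312 and 387 counts in Lgmn KO replicates 1, 2 and 4 and 809, 1145 and 1091 counts in WT replicates 1, 2 and 3. Scaled to depth these were 15.7, 15.9 and 18.2 CPM in Lgmn KO against 39.4, 53.0 and 45.5 CPM in WT. The highest Lgmn KO library lay well below the lowest WT library, and the WT libraries spread more widely than the Lgmn KO libraries. The mean was 16.6 ± 1.41 CPM in Lgmn KO against 46.0 ± 6.83 CPM in WT (SD, 3 libraries each), so that Lgmn KO held 36.2% of the WT level. The fitted log2 fold change (Lgmn KO relative to WT), called the log2 ratio from here on, was -1.47 with a standard error of 0.13 and a 95% interval of -1.77 to -1.17, or 2.76-fold less transcript. In bulk samples fewer cells of a type that carries the transcript and less transcript per cell cannot be told apart. The marker sums of T and NK cells and of fibroblasts were likewise lower in every Lgmn KO library than in every WT library. That of neutrophils was higher by a narrow margin (lowest Lgmn KO library 20.8 CPM, highest WT library 20.4 CPM). Of the neutrophil markers, Cxcr2 (3.49 to 4.50 CPM in Lgmn KO, 2.64 to 3.31 CPM in WT) was higher in every Lgmn KO library. So was Mpo (0.197 to 1.41 CPM in Lgmn KO and 0 counts in every WT library). The other neutrophil markers overlapped between the groups, among them S100a8, which supplied 56.1% of the sum. As for 13% of all tested genes, levels were lower in every Lgmn KO library for some markers within sums that overlapped. Of monocytes these were Ccr2 (3.88 to 6.42 CPM in Lgmn KO, 11.4 to 67.2 CPM in WT) and Ly6c2 (2.04 to 13.2 and 17.5 to 21.3 CPM). Of endothelial cells they were Flt1 (0.920 to 1.43 and 6.38 to 11.1 CPM), Pecam1 (0.141 to 0.409 and 0.827 to 1.76 CPM) and Esam (0.409 to 0.754 and 1.04 to 1.41 CPM). Of dendritic cells it was Zbtb46 (0.283 to 0.307 and 1.25 to 1.39 CPM), and of cardiomyocytes Tnnt2 (0.543 to 0.716 and 0.792 to 0.974 CPM). Some of these rested on few counts in Lgmn KO, such as Pecam1 (3, 8 and 3 counts) and Zbtb46 (6 in each library). Of macrophages they were Csf1r (486 to 609 and 686 to 1116 CPM), Cd14 (39.9 to 45.2 and 55.0 to 114 CPM) and Mertk (129 to 132 and 134 to 169 CPM). The other macrophage markers had groups that overlapped, and Lyz2 supplied 71.1% of the macrophage sum (20331 to 23610 and 21857 to 23500 CPM). The part of these markers' cells in this difference, and in those of the other genes below, was not tested.

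Of the 8 genes, Phlpp1 alone passed an adjusted p of 0.05 in the fit over all genes, in which 0.789% of the 12546 genes passed, 0.478% lower and 0.311% higher. Nothing is read from that count, since the genes were picked with this contrast known. Without Lgmn KO replicate 2 the call ended, with a log2 fold change of -1.44. In the authors' deposited table Phlpp1 carried a log2 fold change of -1.48 and a q-value of 1.6e-14 and was marked DOWN, as were 1.96% of the 17476 genes with a p-value there (2.41% were marked DOWN or UP), and the other 7 genes carried no mark.

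Phlpp2, the paralogue of Phlpp1 with the same enzymatic role, occupies 109868542 to 109944671 of chromosome 8 (plus strand). It stood at 12.0, 13.2 and 11.3 CPM in Lgmn KO against 11.1, 15.0 and 12.8 CPM in WT. The groups overlapped, with WT replicate 1 as the lowest of all 6 libraries and WT replicate 2 as the highest. Its log2 ratio was -0.09 with a 95% interval of -0.43 to 0.24, and it was 0.03 without WT replicate 2.

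Levels of different genes were compared as FPKM, the deposited values scaled to gene length and depth. On that scale Phlpp1 exceeded Phlpp2 by a ratio of 2.56, 2.37 and 3.17 in the Lgmn KO libraries and 6.94, 6.92 and 7.01 in the WT libraries. Phlpp1 thus made up 72.7% ± 2.94 of the PHLPP transcript in Lgmn KO and 87.4% ± 0.069 in WT (SD, 3 libraries each). All WT shares were above all Lgmn KO shares. The ratio depends on the length assigned to each gene: per kilobase of the longest transcript in GENCODE M21, a scale added after seeing the data, it was 1.73 ± 0.268 in Lgmn KO and 4.46 ± 0.0279 in WT, and the share 63.2% and 81.7%.

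**Figure D1:**
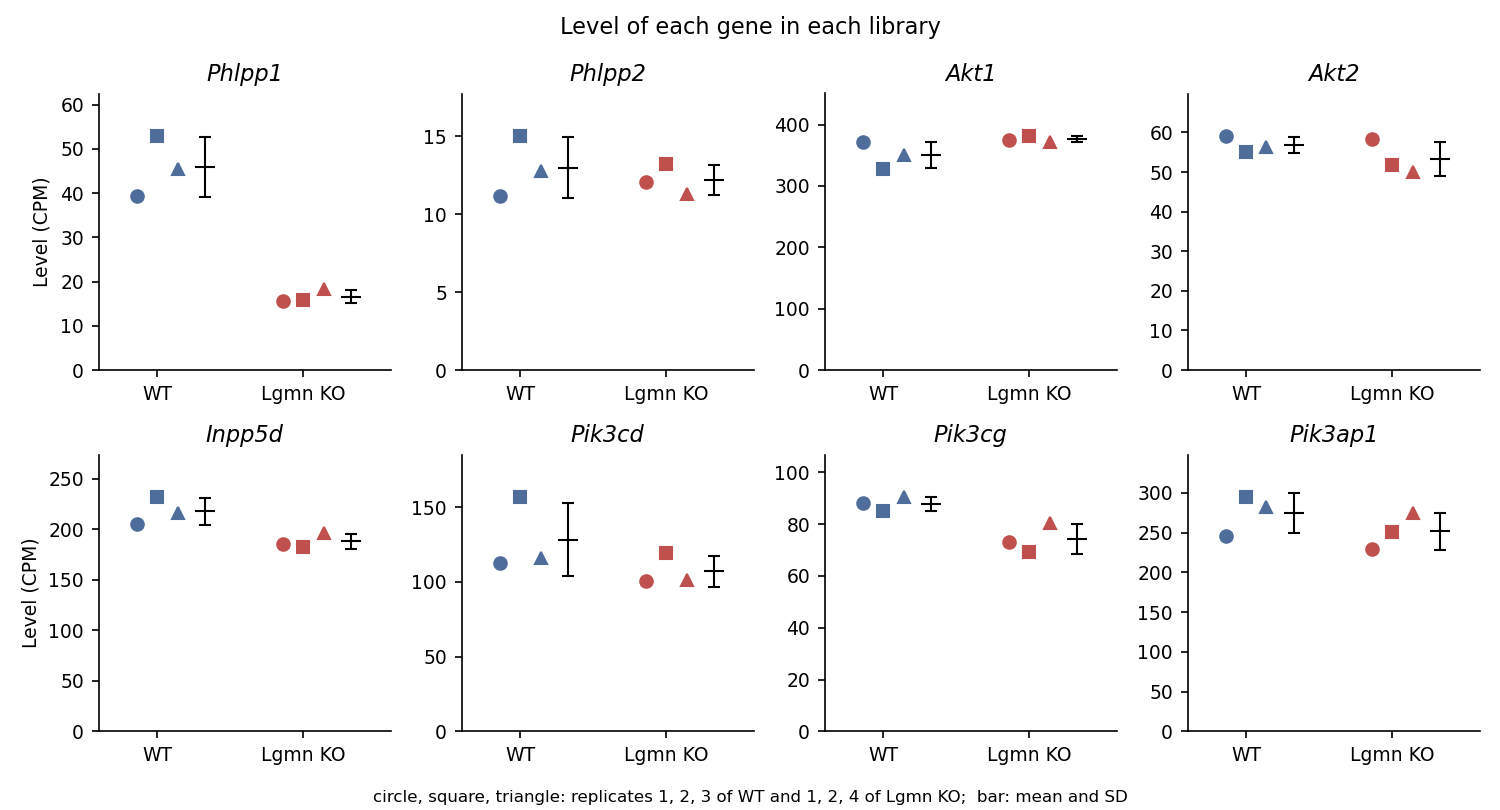
Level in CPM of each of the 8 genes in each library, with replicates as separate symbols and the mean and SD beside them. For Phlpp1 the 3 Lgmn KO libraries (15.7 to 18.2 CPM) sit below the 3 WT libraries (39.4 to 53.0 CPM), while the other 7 genes differ little or overlap between the groups.

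Akt1 encodes the main Akt kinase of most tissues. It occupies 112653821 to 112674884 of chromosome 12 (minus strand), 10.2 Mb from Lgmn, which is on the same chromosome. Its level was 375, 382 and 372 CPM in Lgmn KO against 371, 328 and 350.2 CPM in WT. All Lgmn KO libraries were above all WT libraries, but the lowest Lgmn KO library and the highest WT library were nearly level. The log2 ratio was 0.11 with a standard error of 0.07 and a 95% interval of -0.05 to 0.26.

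Akt2, the isoform best known for insulin signalling, occupies 27591552 to 27640826 of chromosome 7 (plus strand). It was at 58.3, 51.8 and 49.97 CPM in Lgmn KO against 59.2, 55.0 and 56.3 CPM in WT. The groups overlapped, and the log2 ratio was -0.09 with a 95% interval of -0.28 to 0.10.

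The ratio of Akt1 to Phlpp1 FPKM, kinase to phosphatase, was 30.7, 30.7 and 26.2 in Lgmn KO and 12.1, 7.95 and 9.88 in WT. These groups did not overlap. Per kilobase of the longest transcript the mean ratio was 52.7 ± 4.70 in Lgmn KO and 18.0 ± 3.75 in WT (SD, 3 libraries each). Akt1 itself stood at 107.6% and Phlpp1 at 36.2% of the WT level in Lgmn KO.

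Inpp5d encodes SHIP1, the lipid phosphatase of blood cells that lowers the product of PI3K. It occupies 87620312 to 87720507 of chromosome 1 (plus strand). Its level was 186, 182 and 196 CPM in Lgmn KO against 205, 232 and 216 CPM in WT. Every Lgmn KO library was below every WT library, by a small margin. The log2 ratio was -0.21 with a standard error of 0.07 and a 95% interval of -0.38 to -0.04, so that Lgmn KO held 86.4% of the WT level.

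**Figure D2:**
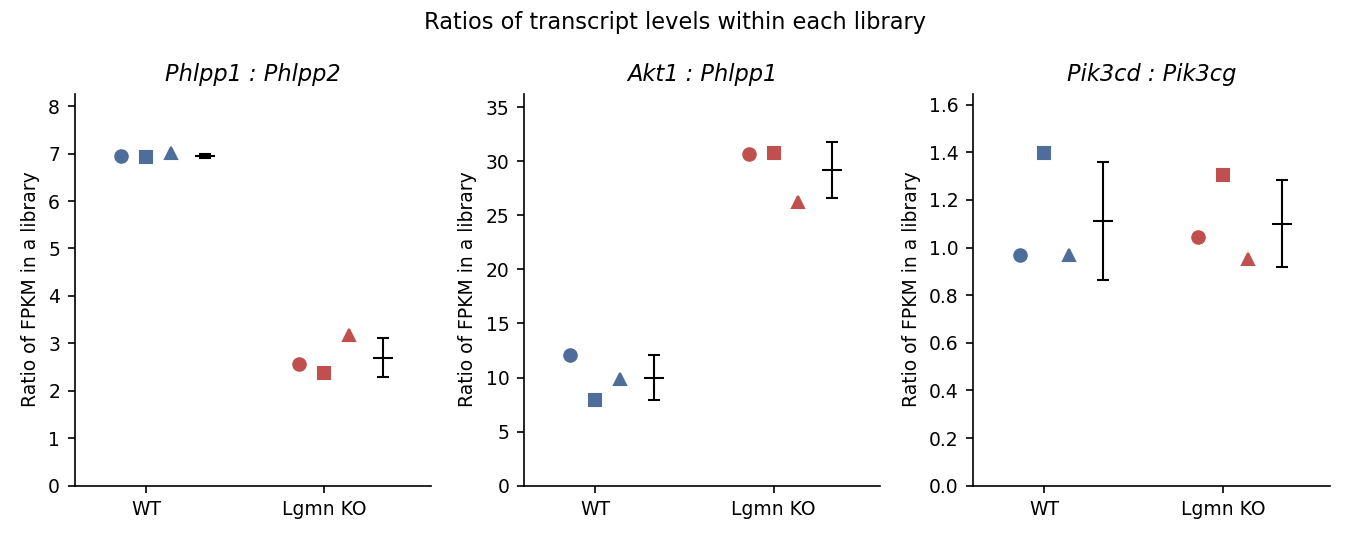
Ratios of FPKM within each library for Phlpp1 to Phlpp2, Akt1 to Phlpp1 and Pik3cd to Pik3cg, with symbols for replicates and the mean and SD beside them. The ratio of Phlpp1 to Phlpp2 was 6.92 to 7.01 in WT and 2.37 to 3.17 in Lgmn KO, while that of Pik3cd to Pik3cg overlapped between the groups.

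Pik3cd and Pik3cg encode the delta and gamma catalytic subunits of class I PI3K, the 2 that are enriched in leukocytes. Pik3cd, at 149649168 to 149702571 of chromosome 4 (minus strand), stood at 101, 119 and 101 CPM in Lgmn KO against 113, 157 and 116 CPM in WT. WT replicate 2 stood apart from the other 5 libraries, and the groups overlapped. The log2 ratio was -0.26 with a 95% interval of -0.59 to 0.07, and it was -0.09 without WT replicate 2.

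Pik3cg, at 32173473 to 32208659 of chromosome 12 (minus strand), is 70.2 Mb from Lgmn. It had 73.0, 69.2 and 80.6 CPM in Lgmn KO against 88.0, 85.0 and 90.4 CPM in WT. The 3 WT libraries were close together and all above the Lgmn KO libraries. The log2 ratio was -0.24 with a standard error of 0.08 and a 95% interval of -0.42 to -0.06.

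The ratio of Pik3cd to Pik3cg FPKM was 1.04, 1.30 and 0.951 in Lgmn KO and 0.968, 1.40 and 0.969 in WT. Replicate 2 was the highest in both groups, and the groups overlapped. Per kilobase of the longest transcript the mean was 1.73 in Lgmn KO and 1.75 in WT.

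Pik3ca and Pik3cb, the widely expressed alpha and beta subunits, complete the class. Pik3ca was at 93.1 ± 9.29 CPM in Lgmn KO against 79.3 ± 2.60 CPM in WT (SD, 3 libraries each), with groups that did not overlap and a log2 ratio of 0.23 (adjusted p = 0.228). Pik3cb was at 125 CPM in both groups. Among the FPKM of the 4 catalytic subunits Pik3cb supplied the greatest share, with 38.2% in Lgmn KO and 36.2% in WT. Pik3cd supplied 22.6% and 25.7%, and Pik3cg 20.8% and 23.3%, with groups that overlapped. Per kilobase of the longest transcript Pik3cd came first instead, with 33.9% in Lgmn KO and 37.5% in WT, and Pik3cb had 30.1% and 28.0%. The FPKM share of Pik3ca was 17.6%, 19.9% and 17.6% in Lgmn KO and 14.9%, 13.8% and 15.8% in WT, so that all Lgmn KO libraries were above all WT libraries.

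Pik3ap1 encodes BCAP, an adaptor that links B cell and Toll-like receptors to PI3K. It occupies 41274218 to 41385070 of chromosome 19 (minus strand). Its level was 229, 251 and 275 CPM in Lgmn KO against 246, 295 and 282 CPM in WT. The groups overlapped, and the log2 ratio was -0.12 with a 95% interval of -0.35 to 0.10.

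Taken over the 8 genes, 7 had a negative log2 ratio, as did 50.4% of all tested genes. The median was -0.17, beside a median of -0.0021 over all tested genes. The groups did not overlap for 4 of them: Phlpp1, Inpp5d and Pik3cg were lower and Akt1 was higher. Groups that did not overlap were found for 23.7% of all tested genes. The estimates differed greatly in size: that of Phlpp1 was -1.47, whereas the other 7 lay between -0.26 and 0.11. No exon of the 8 genes shares a base with an exon of another gene in GENCODE M21. The annotation used for counting was not given, so this does not settle which reads were counted.

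**Figure D3:**
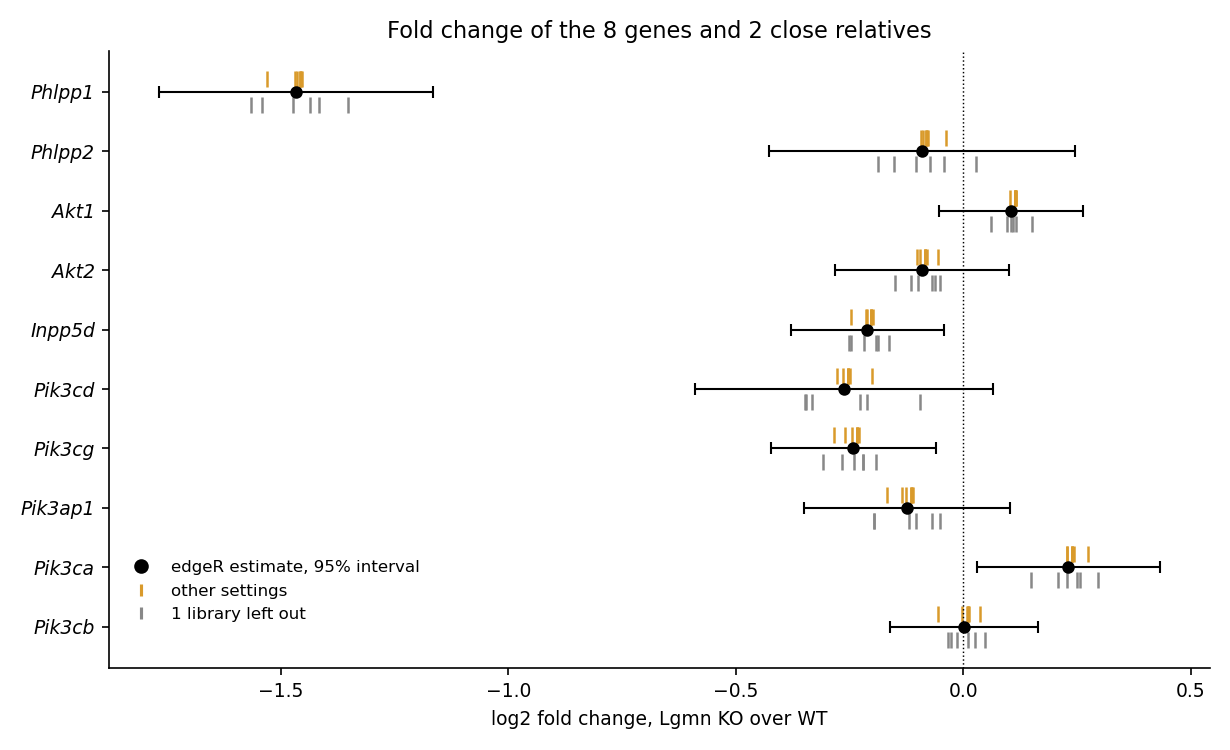
Log2 ratio of Lgmn KO to WT for the 8 genes and for Pik3ca and Pik3cb, with 95% intervals as bars, estimates under other settings as ticks above and estimates without 1 library as ticks below. Phlpp1 sits near -1.47 under each setting drawn (-1.57 to -1.35), and the edgeR estimates of the other 9 genes lie between -0.26 and 0.23.

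By deposited FPKM the order of levels in WT was Pik3ap1 at 105 ± 8.46, Akt1 at 64.3 ± 4.67, Inpp5d at 17.6 ± 0.931, Pik3cd at 10.2 ± 1.90, Pik3cg at 9.26 ± 0.303, Phlpp1 at 6.57 ± 0.915, Akt2 at 4.50 ± 0.225 and Phlpp2 at 0.945 ± 0.134 (SD, n = 3). Pik3cd and Pik3cg overlapped in range and could not be ordered, while all other neighbours were apart. In Lgmn KO the order was the same but for Phlpp1, which at 2.36 ± 0.186 FPKM was below Akt2 at 4.19 ± 0.348 (SD, 3 libraries each), and Pik3cd and Pik3cg overlapped there too. This order depends on the length assigned to each gene. The deposited values imply 2615 bases for Pik3ap1 and 5465 for Akt1, whereas the exons annotated in GENCODE M21 cover 5572 and 4098 bases. Per kilobase of the longest annotated transcript, Akt1 was the most abundant in WT at 130 ± 7.99 CPM per kilobase, above Pik3ap1 at 61.2 ± 5.62 (SD, 3 libraries each). On that scale Pik3cd was above Pik3cg without overlap in both groups, at 26.1 ± 5.02 against 15.0 ± 0.458 CPM per kilobase in WT and 21.8 ± 2.14 against 12.6 ± 0.988 in Lgmn KO (SD, 3 libraries each), while Pik3cg and Akt2 overlapped in Lgmn KO. Phlpp1 was then below Akt2 in WT too, at 7.38 ± 1.10 against 12.5 ± 0.468 CPM per kilobase (SD, 3 libraries each).

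The rest of the pathway was described with 11 lists of genes chosen by textbook role. Together they hold 187 genes found in the table besides the 8, of which 176 could be tested. None of the 176 passed an adjusted p of 0.05 in the edgeR quasi-likelihood test, against the 0.789% given above for all genes. An unadjusted p under 0.05 was found for 37 of them, or 21.02%, against 17.5% of all tested genes, and of these 25 were lower and 12 higher in Lgmn KO. DESeq2 called 15 of the 176 (6 higher and 9 lower), or 8.52%, against 6.41% of all genes in that fit. Limma with sample weights called 5, all lower, or 2.84% against 2.71% of all genes. The median log2 ratio of the 176 was 0.01, with 96 positive and 80 negative values, beside 6218 positive and 6328 negative over all tested genes. Of the 176, 46, or 26.1%, had groups that did not overlap, against 23.7% of all tested genes. Without WT replicate 1 the edgeR test called 14 of the 183 listed genes then tested, 3 higher and 11 lower, or 7.65% against 4.99% of all genes.

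Upstream of PI3K, 22 of 36 tested receptors, adaptors and kinases had a negative value, with a median of -0.03. Fgr, a Src family kinase of myeloid cells, had the smallest p among them. Its level was 94.4, 101 and 97.6 CPM in Lgmn KO against 120, 135 and 128 CPM in WT, a log2 ratio of -0.39 with a standard error of 0.07 (adjusted p = 0.0575). Tyrobp, an adaptor of activating receptors on myeloid cells and by FPKM the most abundant of the list, was at 661 ± 155 CPM in Lgmn KO against 678 ± 36.6 CPM in WT (SD, 3 libraries each).

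Of the other PI3K subunits, 4 of 9 tested were positive and 5 negative, with a median of -0.03. Groups did not overlap for 4 of the 9, or 44.4%, against 23.7% of all tested genes. Pik3r1, the main regulatory subunit, was at 51.9 ± 2.86 CPM in Lgmn KO against 61.7 ± 5.73 CPM in WT (SD, 3 libraries each), with a log2 ratio of -0.25 (adjusted p = 0.214). Pik3r5, the regulatory subunit that pairs with the gamma subunit, was the most abundant at 601 ± 37.0 CPM in Lgmn KO against 552 ± 44.0 CPM in WT (SD, 3 libraries each).

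Among 18 tested inositol lipid phosphatases the median was 0.01. Inpp5j, which removes a phosphate from inositol lipids, was low in all libraries, with 2.17, 1.89 and 2.88 CPM in Lgmn KO against 4.96, 10.5 and 5.09 CPM in WT. Its log2 ratio was -1.56 with a standard error of 0.35 (adjusted p = 0.0842), and the WT mean leaned on WT replicate 2. Mtmr6, a phosphatase of endosomal lipids and the most abundant of the list by FPKM, had a log2 ratio of 0.01 (adjusted p = 0.977).

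Proteins that read PI3K lipids had a median of -0.0051 over 14 tested genes. Cyth3, an exchange factor recruited by the PI3K product, was at 65.4, 72.0 and 56.1 CPM in Lgmn KO against 85.4, 84.0 and 87.2 CPM in WT, a log2 ratio of -0.41 (adjusted p = 0.0937). Plekho2, which carries a lipid-binding domain, was the most abundant at 605 and 574 CPM on average.

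Activators and regulators of Akt had a median of -0.01 over 14 tested genes, 7 positive and 7 negative. Trib1, a pseudokinase that guides proteins to degradation and shapes macrophage differentiation, was at 8.73, 11.4 and 10.5 CPM in Lgmn KO against 16.1, 21.5 and 18.7 CPM in WT. The groups did not overlap, and its log2 ratio of -0.87 had a standard error of 0.16 (adjusted p = 0.0555). The chaperone gene Hsp90ab1, the most abundant of the list, had a log2 ratio of -0.18 (adjusted p = 0.277).

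Protein phosphatase 2A acts on a different site of Akt than PHLPP. Of its 16 tested subunits and regulators 11 were positive, with a median of 0.04. An unadjusted p under 0.05 was found for 0 of them, against 17.5% of all tested genes. The scaffold subunit Ppp2r1a was at 387 ± 14.0 CPM in Lgmn KO against 360.4 ± 5.66 CPM in WT (SD, 3 libraries each), a log2 ratio of 0.10 (adjusted p = 0.44).

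Partners of PHLPP proteins, among them deubiquitinases and scaffolds that stabilise or place them, were positive in 9 of 10 cases, with a median of 0.08. Groups did not overlap for 4 of the 10, or 40%, against 23.7% of all tested genes. Slc9a3r1, a scaffold protein, was at 245, 241 and 236 CPM in Lgmn KO against 216, 214 and 204 CPM in WT, a log2 ratio of 0.19 (adjusted p = 0.181). All Lgmn KO libraries were above all WT libraries for this gene.

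Substrates of PHLPP other than Akt were 7 genes, 3 positive and 4 negative, with a median of -0.02. Their log2 ratios ran from -1.16 to 0.23. An unadjusted p under 0.05 was found for 2 of the 7, or 28.6%, against 17.5% of all tested genes. Lower levels in every Lgmn KO library were found for 1 of the 7, or 14.3%, against 13% of all tested genes. The protein kinase C gene Prkcd, the most abundant by FPKM, had a log2 ratio of 0.05.

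Downstream of Akt, the TSC and mTORC1 branch that controls growth had 12 positive values among 15, with a median of 0.09. Rheb, the GTPase that switches on mTORC1, was at 132, 114 and 120 CPM in Lgmn KO against 98.3, 93.2 and 102 CPM in WT, a log2 ratio of 0.32 (adjusted p = 0.105). Sgk1, a kinase related to Akt, had 1070, 1059 and 1030 CPM in Lgmn KO against 944, 595 and 772 CPM in WT, with a log2 ratio of 0.45 (adjusted p = 0.187). The Lgmn KO libraries were close together for Sgk1, while WT replicate 2 was the lowest.

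Other Akt substrates were positive in 13 of 20 cases, with a median of 0.05. Braf, a kinase of the MAPK pathway, had a log2 ratio of 0.33 (adjusted p = 0.102) and Cdkn1a, which encodes the cell cycle inhibitor p21, one of 0.25 (adjusted p = 0.184). Target genes of the FoxO factors, which Akt keeps out of the nucleus, had a median of -0.04 over 20 genes, 9 positive and 11 negative. Ccng2, a cyclin, was at 14.3, 14.0 and 16.5 CPM in Lgmn KO against 19.6, 21.99 and 24.6 CPM in WT (log2 ratio -0.56, adjusted p = 0.0837). Il7r, the interleukin-7 receptor gene, went the other way, with 1216 ± 126 CPM in Lgmn KO against 936 ± 118 CPM in WT (SD, 3 libraries each; adjusted p = 0.154).

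**Figure D4:**
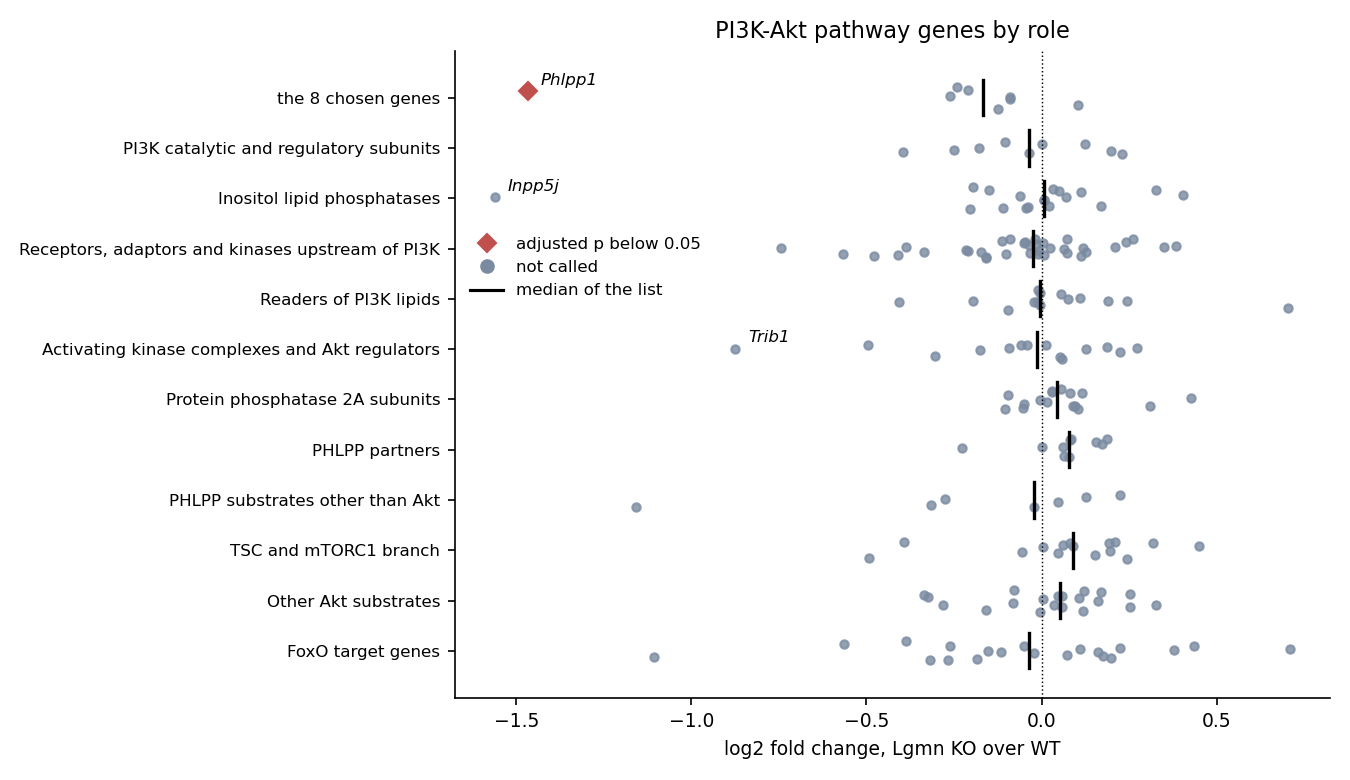
Log2 ratio of Lgmn KO to WT for each tested gene of the 8 chosen genes and of 11 role lists, with the list median as a black line. Phlpp1 alone is drawn as called, and the list medians lie between -0.17 for the 8 chosen genes and 0.09.

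The genes whose levels followed Phlpp1 most closely over the 6 libraries were looked up among 9072 genes with a mean of at least 5 CPM. They were Tgfbi (Pearson r = 0.995 on log2 CPM), Rpl3 (r = 0.994), Tanc2 (r = 0.993), Irg1 (r = 0.992) and Lamc1 (r = 0.991). All 5 were lower in each Lgmn KO library than in each WT library, a split that by itself gives a high correlation over 6 points. The size of the difference varied widely: the log2 ratio was -3.96 for Irg1, which encodes the itaconate-making enzyme, -2.36 for Tgfbi, a matrix protein, -0.81 for the ribosomal protein gene Rpl3, -0.61 for the scaffold gene Tanc2 and -0.23 for Lamc1, a laminin chain. Among the 7 other chosen genes the correlation with Phlpp1 was highest for Inpp5d (r = 0.943) and Pik3cg (r = 0.875), and that of Akt1 was negative (r = -0.824). These coefficients describe 6 libraries that share the genotype split and carry no test.

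**Figure D5:**
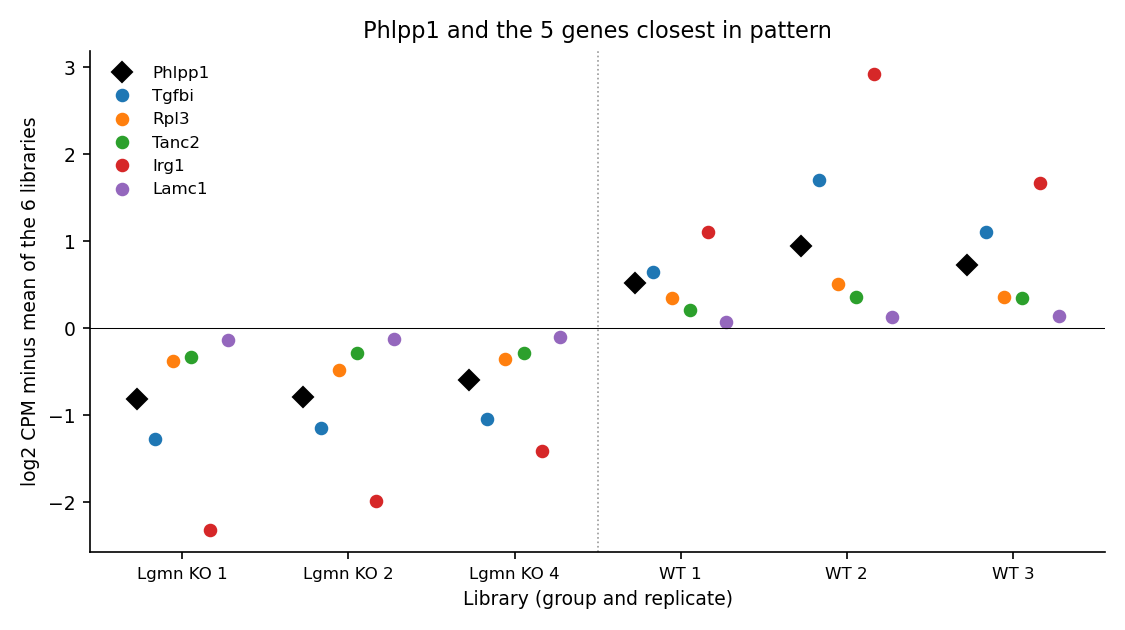
Log2 CPM of Phlpp1 (black diamonds) and of the 5 genes closest to it in pattern (circles), each centred on its mean of the 6 libraries, by library. All 6 genes lie below their mean in the Lgmn KO libraries and above it in the WT libraries, and Irg1 and Tgfbi spread more widely than Phlpp1.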

How the data were processed

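RNA was sequenced from cardiac macrophages stained for CD45, CD64 and CD11b, in 3 Lgmn KO and 3 WT samples. HISAT2, TopHat2 2.0.9 and TopHat, with no role, and the build hg38 are named in the submitters' processing notes, although the positions are those of mouse: GENCODE M21 (GRCm38) holds 98.6% of the gene IDs, with identical positions for 80.8% of those. The read counter and strand setting were not given in the sources used here.

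The deposited table gives raw counts and FPKM per gene and library, per the file headers, and the authors' log2 fold change, p-value and q-value, whose test is not stated. Columns were matched to samples by title. Counts were filtered with filterByExpr, scaled with TMM and tested with edgeR 4.0.16 (glmQLFit, glmQLFTest, two-sided, Benjamini-Hochberg over all 12546 genes, called below 0.05) in R 4.3.3. The standard error comes from the F statistic and 95% intervals from it and the test's degrees of freedom. FPKM was used for levels between genes, ratios and shares and was not tested. Depth was 19546253 to 24086976 counts, so that 3 counts, the limit a count of 0 allows, are 0.125 to 0.153 CPM, which covers counting error only. The biological coefficient of variation was 16.1%.

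The 8 genes and all lists were chosen with earlier results of these data known. Of the listed symbols 3 were matched by synonym. Named from each list were the called genes of smallest p (up to 3) or else the gene of smallest p, and the gene of highest mean FPKM. Pik3ca, Pik3cb, Lgmn and the 5 genes most correlated with Phlpp1 (leaving out predicted genes and pseudogenes) were always named. Some genes picked in this way are left out here. Alternatives were DESeq2 1.42.0, limma 3.58.1 voom with sample weights, RLE and upper-quartile factors, no filter and a stricter filter (50 counts in all and 5 CPM in 3 libraries), a threshold of 0.1, the replicate number as a block, and leaving out each library. CPM per kilobase of the longest GENCODE M21 transcript in place of FPKM was added after seeing the data. On simulated data for this comparison (12395 genes) edgeR called 76.7% of the 90 genes simulated with a 2-fold change, 92.5% of the 106 with a 4-fold change and 14 with none.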

Additional observations from a re-analysis of the deposited data

How the results depend on the processing

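The number of genes called over the whole table, 99, was 804 with DESeq2, 340 with limma and sample weights, 318 without a filter on low counts, 55 with the stricter filter and 503 at a threshold of 0.1, and it ranged from 6 (without Lgmn KO replicate 2) to 639 (without WT replicate 1) when 1 library was left out. It was 26 and 27 without Lgmn KO replicates 1 and 4, and 35 and 14 without WT replicates 2 and 3. Of the 8 chosen genes 1 was called, Phlpp1, in all of these fits but the one without Lgmn KO replicate 2, so leaving out libraries gave 0 to 1. Over the 13 alternatives to the fit its log2 fold change lay between -1.57 and -1.35. Of the 176 pathway genes 0 were called, but 15 with DESeq2 and 5 with limma and sample weights, near the shares of all genes given in the Results. Without a filter 5 of up to 187 listed genes were called, beside 318 of the 18457 genes with a count. At a threshold of 0.1 there were 10 of the 176, beside 503 of all 12546 tested genes. Leaving out 1 library gave 0 to 14, the 14 without WT replicate 1, where 183 were tested and 639 of all genes were called. Nothing about the pathway is read from these counts. With the replicate block 39 genes were called in all, Phlpp1 among them (-1.53), and 0 of the pathway genes. The groups share only the numbers 1 and 2, whose libraries had correlations of 0.12 and 0.08 in their deviations from the group means. Libraries of unlike numbers had correlations of -0.17 to 0.11. Deviations from a group mean are tied to one another within the group, so these values cannot show whether the numbers are pairs. The main fit did not take them as pairs.

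Of 455 values of 35 named genes under the alternatives, 405 kept direction and side of the threshold, 19 gained and 19 lost a call, and 12 changed sign, all of them values near 0 of genes that were not called. Pik3cb was -0.056 with the replicate block, -0.0018 with the stricter filter and -0.032 to 0.049 without 1 library. Mtmr6 was -0.055 with the replicate block and -0.039 to 0.061 without 1 library. Without 1 library Phlpp2 ranged from -0.19 to 0.027 and Tyrobp from -0.22 to 0.11. The cause of these shifts was not tested.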

Other observations

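A few more genes that act upstream of PI3K are given here, chosen after their values were seen. Groups that did not overlap were found for 13 of the 36 tested genes of that list (10 lower and 3 higher), or 36.1%, against 23.7% of all tested genes. The Src family kinase gene Lyn was at 141, 135 and 143 CPM in Lgmn KO against 153, 203 and 172 CPM in WT, with a log2 ratio (Lgmn KO to WT) of -0.33 (adjusted p = 0.168). Csf1r, the receptor for the macrophage growth factor CSF1, was at 486, 555 and 609 CPM in Lgmn KO against 686, 1116 and 964 CPM in WT (log2 ratio -0.74, adjusted p = 0.0916). Ptpn6, which encodes the phosphatase SHP-1, had a log2 ratio of -0.41 (adjusted p = 0.175). Syk and Btk, kinases that act beside them, had groups that overlapped, with log2 ratios of 0.06 and -0.03. The adaptor gene Blnk went the other way, at 167, 175 and 187 CPM in Lgmn KO against 132, 137 and 146 CPM in WT (log2 ratio 0.35, adjusted p = 0.0769).

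The genes beside Phlpp1 on chromosome 1 were looked at after the data were seen. Within 500 kb of it, Bcl2, which encodes a survival protein, was at 5.18, 7.36 and 6.03 CPM in Lgmn KO against 9.10, 11.3 and 8.80 CPM in WT, a log2 ratio of -0.65 (adjusted p = 0.13). Tnfrsf11a, which encodes the receptor RANK, was also lower in each Lgmn KO library, with a log2 ratio of -0.44 (adjusted p = 0.15). Zcchc2 was higher in each Lgmn KO library, with a log2 ratio of 0.18 (adjusted p = 0.291). Vps4b, Kdsr, 2310035C23Rik and Gm7160, the other tested genes there, had values of -0.0021, -0.14, -0.03 and 0.19 with overlapping groups. Groups that did not overlap were found for 23.7% of all tested genes.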
